A study of Homo sapiens with 20 samples.

Results

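The genes that prepare peptides for MHC class I were followed in human lung cancer cell lines treated with decitabine (DAC), a deoxycytidine analog that traps DNA methyltransferases once built into DNA, or with PBS (Mock). The group holds 9 genes chosen by name, though with earlier results of these data known: TAP1, TAP2, TAPBP, PSMB8, PSMB9, PSMB10, NLRC5, ERAP1 and ERAP2. Each has 1 row among the 36076 genes of the mRNA-seq table, and all 9 were among the 22603 genes that averaged 0.1 FPKM or more (fragments per kilobase of gene, scaled to library depth) over 10 libraries, those of the 5 lines compared. mRNA-seq covered H1792, H1299, PC9, A549, CL1-5 and CL1-0 cells under both treatments, with 1 library per line and treatment (12 libraries). Omni-ATAC-seq, which maps accessible chromatin, covered A549, CL1-5, PC9 and H1299 (8 libraries). DAC was given at 100 nM for 72 h and followed by 3 days of drug-free culture. All cells were unmodified lines grown in the same medium, and CL1-5 is a subline selected from CL1-0. Cell lines are the replicates here, with CL1-0 and CL1-5 counted as separate lines in all tests though they are related. The spread given is therefore that between lines, and the spread between cultures of 1 line was not measured.

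MHC class I molecules display short peptides of the cell's own proteins to T cells. The proteasome cuts proteins into peptides, and under interferon its constitutive catalytic subunits are exchanged for those encoded by PSMB8, PSMB9 and PSMB10, which form the immunoproteasome. TAP1 and TAP2 form the transporter that carries peptides into the endoplasmic reticulum, tapasin (TAPBP) holds the empty class I molecule beside it, and the aminopeptidases ERAP1 and ERAP2 trim peptides to length. NLRC5 is a transactivator that is recruited to class I promoters and to those of several of these genes, and interferon regulatory factors (IRFs) bind elements in many of them.

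Between 22234485 and 25303899 reads were counted on genes in the 10 libraries other than H1299, and 59735913 (Mock) and 52634234 (DAC) in H1299. In the H1299 libraries 85.5% and 81.9% of the genes with 1 to 20 reads had an even number of reads, against 39.2% to 41.5% elsewhere, so their reads were halved for counting intervals. H1299 and H1792 below name the libraries so labelled. Since the H1299 libraries stand apart, some of the values across lines are also given without them, and H1792 is not among the 5 lines. CDKN2A, deleted in A549, had 0 reads in both A549 libraries, and also in both of CL1-5 though not in CL1-0. The summed level of 5 epithelial markers (KRT8, KRT18, KRT19, EPCAM and CDH1) was 0.986 FPKM in Mock CL1-0 and 111 to 3015 FPKM in the other Mock lines. After DAC it was 3.05 FPKM in CL1-0 and 138 to 1907 FPKM in the others, with H1299 going from 111 to 669 FPKM, and its part in the results was not tested. Over 5 lines the Mock medians were 75.9 FPKM for KRT8 and 73.4 for KRT18. They were 0.758 FPKM for KRT19, 0.562 for CDH1 and 0.151 for EPCAM, so the sum hides low levels of these 3 genes in most of the 5 lines. The summed level of 7 leukocyte markers was 0.769 to 5.43 FPKM in Mock and 1.27 to 9.36 FPKM after DAC, and PTPRC, the gene of CD45, did not exceed 0.0759 FPKM in any library.

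The promoters were read first, since the IRF element is the feature most of these genes share. RefSeq promoters (GRCh38.p14) were at hand for 8 of the 9 genes, with 12 start sites, and NLRC5 was not among them. The core of the element was searched as GAAANNGAA on both strands. It lay in the 250 bases before the start in 5 of the 12 promoters (of 5 genes), where 6.88% of all 35116 promoters in the same table held it. In PSMB8 and ERAP1 it lay just across or after a start, so that 7 of the 12 held it within 300 bases (50 after the start included), as 8.11% of all promoters did. PSMB9 had none in its window. The 7 sites are shown with up to 30 bases each, 5′ to 3′ in the direction of the gene, with the core in capitals. A core on the opposite strand appears as its reverse complement.
TAP1 (chr6:32853816-32853844, minus strand): ggccgctTTCGATTTCGCTTTCccctaaa
TAP2 (chr6:32838779-32838807, minus strand): ctggggaagcGAAAGCGAAagctgcccga
TAPBP (chr6:33314077-33314105, minus strand): tttggagGAAAGTGAAAGTGAAaggagga
PSMB8 (chr6:32844032-32844060, minus strand): atctgtggctTTCGCTTTCacttcctcct
PSMB10 (chr16:67936853-67936881, minus strand): gggtaaaggcGAAAGCGAAagcaggaagt
ERAP1 (chr5:96807924-96807952, minus strand): gggctccactTTCACTTTCggtcctgggg
ERAP2 (chr5:96876460-96876488, plus strand): tcttagaacaGAAAGTGAAagcaaaagta

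TAP1 and TAPBP each held 2 overlapping cores, which 0.567% of all promoters did. The cores began 133 and 127 bases before the TAP1 start, 58 before TAP2, 20 and 14 before TAPBP, 21 before PSMB10 and 30 before the second ERAP2 start. In PSMB8 the core crossed the second start, from 3 bases before it, and in ERAP1 it began at base 4 after the start. TAP1 and PSMB9 are transcribed away from each other from starts 488 bp apart. The stretch between them that no annotated exon covers is shown because the 2 TAP1 cores are the only ones between both starts. It holds 18 CpG and is printed on the plus strand, the direction of PSMB9, with the cores in capitals.
TAP1 to PSMB9 (GRCh37, chr6:32821594-32821893, plus strand): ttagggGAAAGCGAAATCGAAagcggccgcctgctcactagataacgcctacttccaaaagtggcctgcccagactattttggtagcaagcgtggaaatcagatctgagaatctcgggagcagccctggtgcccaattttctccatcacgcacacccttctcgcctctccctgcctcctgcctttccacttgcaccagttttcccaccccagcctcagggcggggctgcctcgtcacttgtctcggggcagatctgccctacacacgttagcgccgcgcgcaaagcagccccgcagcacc

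CpG number varied widely among the members. In the 250 bases before the start it was 21 for PSMB9, 19 for TAP2 and 10 for TAPBP, and it was 25 and 3 for the starts of ERAP1, 16 and 11 for those of TAP1, and 14 and 11 for those of PSMB8. PSMB10 had 5 and the starts of ERAP2 had 0 and 2. The median over all promoters was 11 (quartiles 3 and 23). Both starts of ERAP2, that of PSMB10 and the second of ERAP1 lay on the CpG-poor side, and TAPBP lay just below the median. The first start of ERAP1 was at the 78.4th percentile. The 250 bases before the second ERAP2 start are shown as the CpG-poor case, again with the IRF core in capitals.
ERAP2 (GRCh37, chr5:96211954-96212203, plus strand): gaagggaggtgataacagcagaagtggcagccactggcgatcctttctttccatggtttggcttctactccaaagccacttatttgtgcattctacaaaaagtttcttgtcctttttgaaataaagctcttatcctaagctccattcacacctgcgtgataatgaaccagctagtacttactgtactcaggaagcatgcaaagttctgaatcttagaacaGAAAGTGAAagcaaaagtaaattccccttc
The Sp1 core GGGCGG was found before TAP1, TAP2, TAPBP and PSMB9 (42.6% of all promoters), and the kappa B motif before TAP1, TAPBP and ERAP1 (9.96%). The STAT core TTCNNNGAA was found only before the second starts of TAP1 and PSMB8 (6.57%). These matches are descriptions of letters, not binding sites.

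Across the 5 lines CL1-5, H1299, A549, PC9 and CL1-0, all 9 genes had a higher mean log2(FPKM + 0.1) after DAC. So had 13290 of the 22603 genes tested, and the difference did not pass the threshold for any of the 9. Their log2 fold changes, from limma with cell line as the block, ran from 0.37 for TAPBP to 0.98 for ERAP2. Their median was 0.68, against 0.07 over all genes tested. At an adjusted p under 0.05 limma called 0 of the 9 genes, where it called 0.119% of all genes higher (27 genes) and 0 lower. At an unadjusted p under 0.05 it gave 4 of the 9 as higher (TAP1, PSMB8, ERAP1 and ERAP2) against 8.07% of all genes. On the recovered reads limma's voom also called 0 of the 9, with 8 at an unadjusted p under 0.05. It called 199 of all genes higher, and the median of all genes was 0.17. Without H1299 the median of the 9 genes was 0.62, and without CL1-5 it was 0.34, with 1 gene at an unadjusted p under 0.05. The share of all genes at an unadjusted p under 0.05 was computed for the main fit alone. The 8.07% is therefore not the background of these other counts. Rescaling the FPKM to a common sum per library moved the median of all genes to 0.17 and that of the 9 genes to 0.77.

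The size of the difference depended on the line. In CL1-5, 8 of the 9 genes were at least 2-fold higher after DAC on the log2(FPKM + 0.1) scale, where 7.25% of all genes were. The number was 3 in H1299 (8.18% of all genes), 2 in A549 (15.5%), 1 in H1792 (10.3%), 0 in PC9 (10.2%) and 0 in CL1-0 (7.6%). By the FPKM ratio itself, without the added 0.1, ERAP2 in A549 (2.03) and CL1-0 (2.39) and NLRC5 in PC9 (2.03) also passed 2. PSMB9 in CL1-0 was the lowest, at an FPKM ratio of 0.494 and a difference of -0.98 on the log2(FPKM + 0.1) scale. In bulk RNA a higher level per cell and a larger share of expressing cells cannot be told apart. The median log2 difference over the 9 genes was 1.46 in CL1-5, 0.56 in H1792, 0.37 in A549, 0.34 in PC9, 0.29 in H1299 and -0.04 in CL1-0, against medians of all genes between 0 and 0.07. Rescaled to a common sum, the median of all genes was 0.36 in A549, 0.16 in PC9 and 0.16 in CL1-0, and that of the 9 genes was 0.71, 0.50 and 0.13. Of the 54 pairs of gene and line, 43 were higher after DAC, and without H1299 and H1792 28 of 36 were. Among all genes tested the share higher after DAC ran from 43.4% in H1299 to 53.5% in A549. The sign turned under another scaling in 10 of the 54 pairs, all with differences between -0.17 and 0.15 as deposited. These were TAP2 in A549, CL1-0 and H1792, PSMB8 in PC9, PSMB9 in A549, PSMB10 in A549, PC9 and H1299, and ERAP1 and ERAP2 in H1792.

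**Figure D1:**
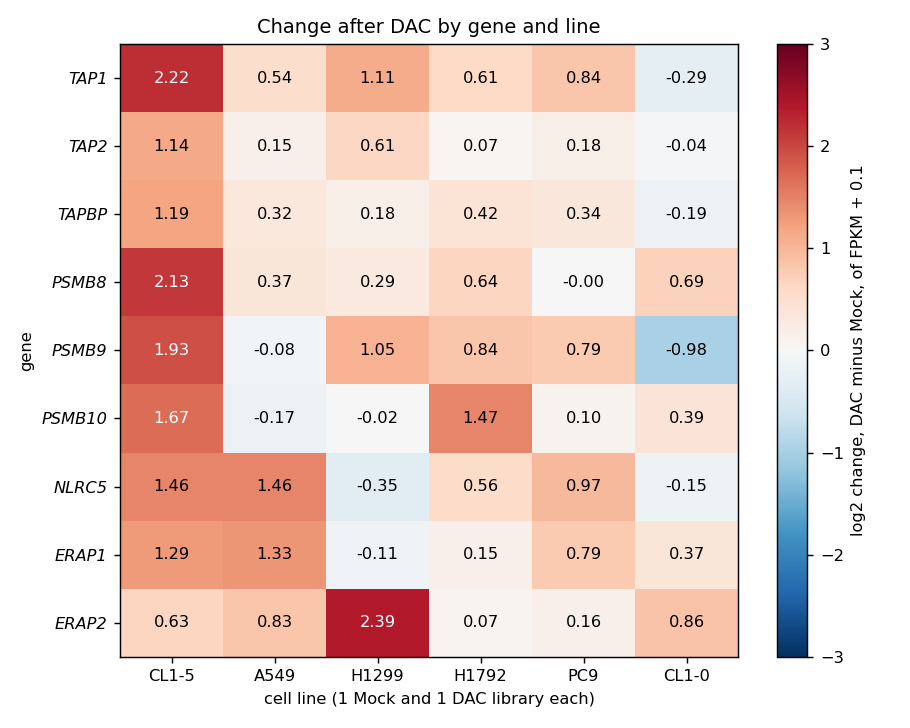
Log2 difference of FPKM + 0.1, DAC minus Mock, for each of the 9 genes (rows) in each of the 6 lines (columns), with 1 library per line and treatment behind each cell. The CL1-5 column runs from 0.63 (ERAP2) to 2.22 (TAP1), and the CL1-0 column from -0.98 (PSMB9) to 0.86 (ERAP2).

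The transporter genes and tapasin were present in every line. TAP1 (ENSG00000168394; chromosome 6 of GRCh37, 32812986 to 32821593) had 13.0 FPKM in CL1-5, 8.69 in H1299, 7.22 in A549, 2.80 in PC9, 12.2 in H1792 and 7.51 in CL1-0 in Mock libraries. After DAC it had 61.0 FPKM in CL1-5, 18.8 in H1299, 10.5 in A549, 5.08 in PC9, 18.6 in H1792 and 6.15 in CL1-0. It was higher in 5 of the 6 lines and lower in CL1-0, and CL1-5 after DAC stood far above all other libraries. The ratio of DAC to Mock was 4.70 in CL1-5 (exact 95% interval from the read numbers 4.45 to 4.97), 2.17 in H1299 (2.02 to 2.33), 1.82 in PC9 (1.57 to 2.11) and 0.818 in CL1-0 (0.742 to 0.902). These intervals, here and below, cover counting error only. Over the 5 lines limma put the log2 fold change at 0.88 with a standard error of 0.32 (adjusted p = 0.341), which was 0.55 without CL1-5 and 0.83 without H1299.

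TAP2 (ENSG00000204267; chromosome 6, 32789610 to 32806516), which pairs with TAP1 in the transporter, had 8.57 FPKM in CL1-5, 4.38 in H1299, 1.94 in A549, 5.07 in PC9, 6.46 in H1792 and 5.10 in CL1-0 in Mock libraries. After DAC it had 19.1 FPKM in CL1-5, 6.77 in H1299, 2.15 in A549, 5.75 in PC9, 6.78 in H1792 and 4.95 in CL1-0. A549 was lowest and CL1-5 highest under both treatments. The ratio was 2.23 in CL1-5 (2.09 to 2.37) and 1.54 in H1299 (1.41 to 1.69), and between 0.970 and 1.13 in the other 4 lines. By limma the 5-line log2 fold change was 0.41 with a standard error of 0.19 (adjusted p = 0.423), and 0.22 without CL1-5. TAP1 exceeded TAP2 in FPKM in 5 of 6 Mock lines, with PC9 the exception.

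TAPBP (ENSG00000231925; chromosome 6, 33267471 to 33282061) had the highest median FPKM of the 9 genes, 24.5 in Mock and 25.9 after DAC over 6 lines. It had 25.3 FPKM in CL1-5, 23.7 in H1299, 19.5 in A549, 17.8 in PC9, 46.8 in H1792 and 28.4 in CL1-0 in Mock libraries. DAC libraries held 57.9 FPKM in CL1-5, 26.9 in H1299, 24.4 in A549, 22.5 in PC9, 62.5 in H1792 and 24.9 in CL1-0. The ratio was 2.29 in CL1-5 (2.19 to 2.38), 0.878 in CL1-0 (0.838 to 0.920) and 1.13 to 1.34 in the others. Its log2 fold change over 5 lines was the smallest of the group, 0.37 with a standard error of 0.19 (limma, adjusted p = 0.456), and was 0.16 without CL1-5.

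**Figure D2:**
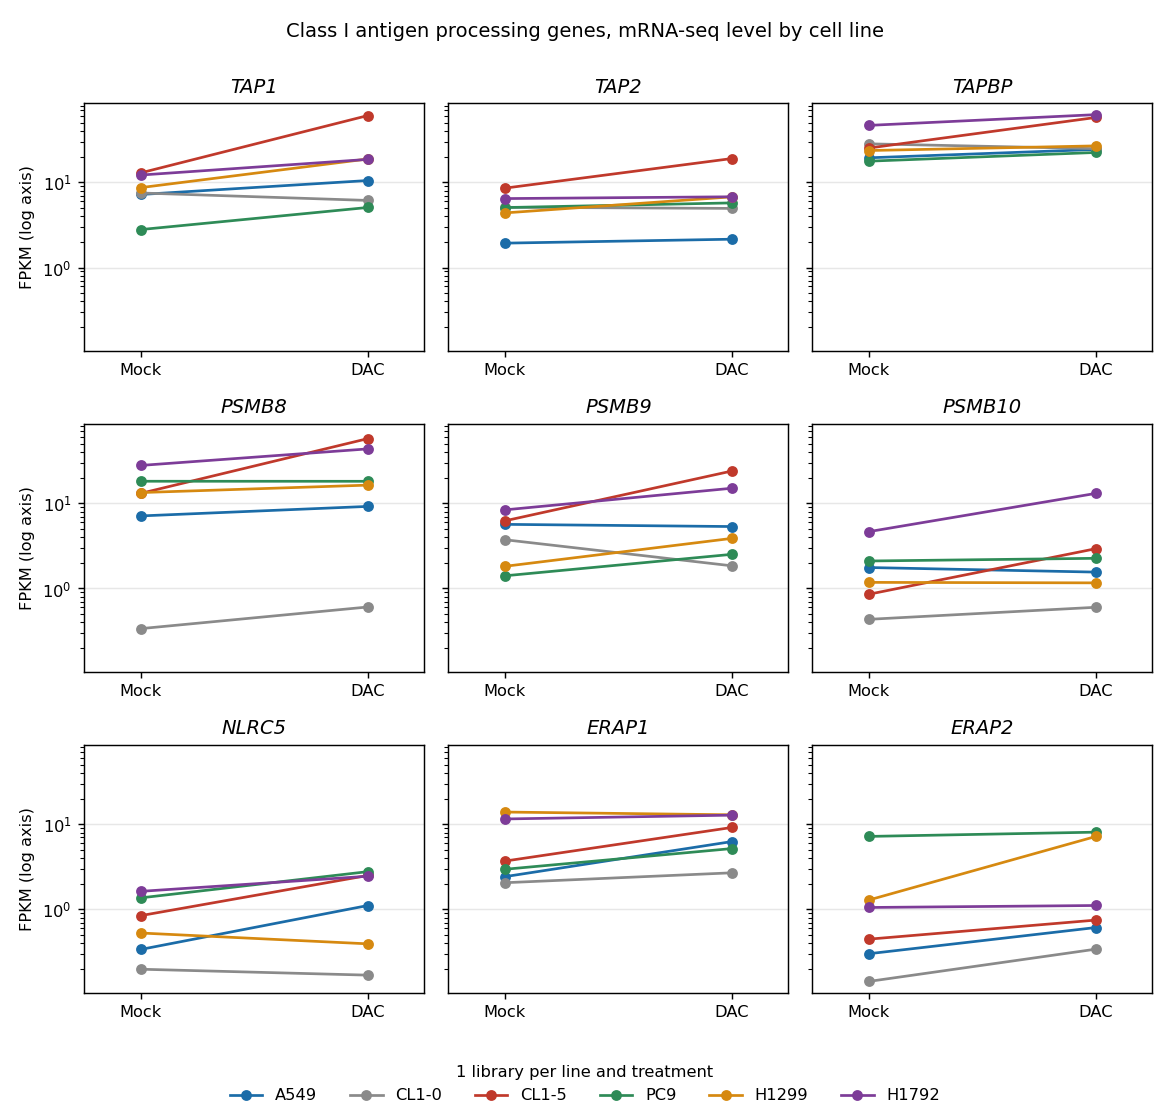
FPKM of each of the 9 genes in Mock and DAC libraries on a log axis shared by all panels, with 1 point per library and a line joining the libraries of a cell line. The CL1-5 line rises at least 2-fold for every gene but ERAP2, from 13.0 to 61.0 FPKM for TAP1. ERAP2 in H1299 goes from 1.29 to 7.19 FPKM.

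Among the immunoproteasome genes, PSMB8 (ENSG00000204264; chromosome 6, 32808494 to 32812456) had 13.1 FPKM in CL1-5, 13.4 in H1299, 7.12 in A549, 18.2 in PC9, 27.9 in H1792 and 0.338 in CL1-0 in Mock libraries. Following DAC it stood at 57.6 FPKM in CL1-5, 16.4 in H1299, 9.20 in A549, 18.2 in PC9, 43.6 in H1792 and 0.606 in CL1-0. CL1-0 was apart from the other lines under both treatments, with 16 reads in Mock and 36 after DAC. The ratio was 4.39 in CL1-5 (4.04 to 4.77) and 0.999 in PC9 (0.904 to 1.10), and in CL1-0 it was 1.79 with an interval that spans 1 (0.970 to 3.46). Over the 5 lines the estimate from limma was a log2 fold change of 0.69 with a standard error of 0.29 (adjusted p = 0.398), and 0.34 without CL1-5.

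PSMB9 (ENSG00000240065; chromosome 6, 32811913 to 32827628) had 6.23 FPKM in CL1-5, 1.82 in H1299, 5.67 in A549, 1.41 in PC9, 8.38 in H1792 and 3.74 in CL1-0 in Mock libraries. In DAC cells it reached 24.0 FPKM in CL1-5, 3.88 in H1299, 5.34 in A549, 2.52 in PC9, 15.0 in H1792 and 1.85 in CL1-0. It was 3.84-fold higher in CL1-5 (3.48 to 4.25) and 2.13-fold higher in H1299 (1.75 to 2.59), and in CL1-0 the ratio was 0.494 (0.405 to 0.601), the lowest of any gene and line. The 5-line log2 fold change from limma was 0.54 with a standard error of 0.38 (adjusted p = 0.564), 0.20 without CL1-5 and 0.92 without CL1-0. PSMB9 overlaps TAP1 and the start of PSMB8, both on the opposite strand. The strand setting of the counting is not stated, so reads of these 3 genes may be shared in part. PSMB9 and TAP1 were the pair of members most alike over the 12 libraries (Pearson r = 0.85 of log2(FPKM + 0.1), across libraries that share lines). PSMB9 with TAPBP (0.84) and NLRC5 with PSMB8 (0.83) followed closely. Any part of the upstream stretch that PSMB9 and TAP1 share was not tested.

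PSMB10 (ENSG00000205220; chromosome 16, 67968409 to 67970767) was the lowest of the immunoproteasome genes in FPKM in every Mock line but CL1-0 and PC9. It had 0.856 FPKM in CL1-5, 1.18 in H1299, 1.76 in A549, 2.10 in PC9, 4.66 in H1792 and 0.434 in CL1-0 in Mock libraries. The level with DAC was 2.93 FPKM in CL1-5, 1.16 in H1299, 1.56 in A549, 2.26 in PC9, 13.1 in H1792 and 0.601 in CL1-0. CL1-5 and H1792 stood out, with ratios of 3.43 (2.41 to 4.95) and 2.81 (2.40 to 3.30), and the interval of each other line spanned 1. Limma put the log2 fold change at 0.39 with a standard error of 0.28 (adjusted p = 0.567), and 0.08 without CL1-5.

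Each immunoproteasome subunit was set against the constitutive subunit it replaces, a ratio within a library that does not depend on the factor by which a library is scaled. By FPKM, PSMB8 amounted to 10.8% of PSMB5 in CL1-5, 19.8% in H1299, 5.40% in A549, 35.1% in PC9, 34.1% in H1792 and 0.199% in CL1-0 in Mock libraries. After DAC it amounted to 38.6% in CL1-5, 19.1% in H1299, 12.4% in A549, 51.5% in PC9, 43.8% in H1792 and 0.50% in CL1-0. The share was above Mock in every line but H1299 (5 of 6), and the mean log2 change was 0.84 ± 0.68 (SD, n = 6 lines, p = 0.0625 in an exact two-sided permutation test that flips signs, 0.0938 adjusted over 3 pairs).

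PSMB9 amounted to 0.960% (PC9) to 9.57% (H1792) of PSMB6 in Mock and to 1.54% (CL1-0) to 21.0% (CL1-5) after DAC. It was higher in 5 of 6 lines, with CL1-0 the exception, by a mean log2 change of 0.80 ± 0.82 (SD, n = 6 lines, exact permutation p = 0.0938, adjusted 0.0938). PSMB10 amounted to 0.291% (CL1-0) to 4.37% (H1792) of PSMB7 in Mock and to 0.544% (CL1-0) to 9.45% (H1792) after DAC. It too was higher in 5 of 6 lines, H1299 excepted, by 0.74 ± 0.54 (SD, n = 6 lines, exact permutation p = 0.0625, adjusted 0.0938). The smallest p that 6 lines allow is 0.03125, and none of the 3 ratios passed the threshold. In A549, CL1-0 and PC9 the constitutive partner was lower after DAC in all 3 pairs, by log2 differences of -0.35 (PSMB7 in PC9) to -1.04 (PSMB6 in A549) as deposited. These became -0.18 and -0.69 with a common sum and -0.0059 and -0.51 with quantile normalization. In A549 the ratios of PSMB9 and PSMB10 were higher while both genes were themselves lower (-0.08 and -0.17), and in PC9 the ratio of PSMB8 was higher while the gene was at 0.999 of its Mock level. With quantile normalization, which is not a single factor per library, the mean ratio changes were 0.69, 0.61 and 0.51, with adjusted exact permutation p of 0.188, 0.234 and 0.25. In CL1-5, where PSMB5 and PSMB7 were higher by 0.30 and 0.25, the ratios were higher by 1.83 and 1.42.

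**Figure D3:**
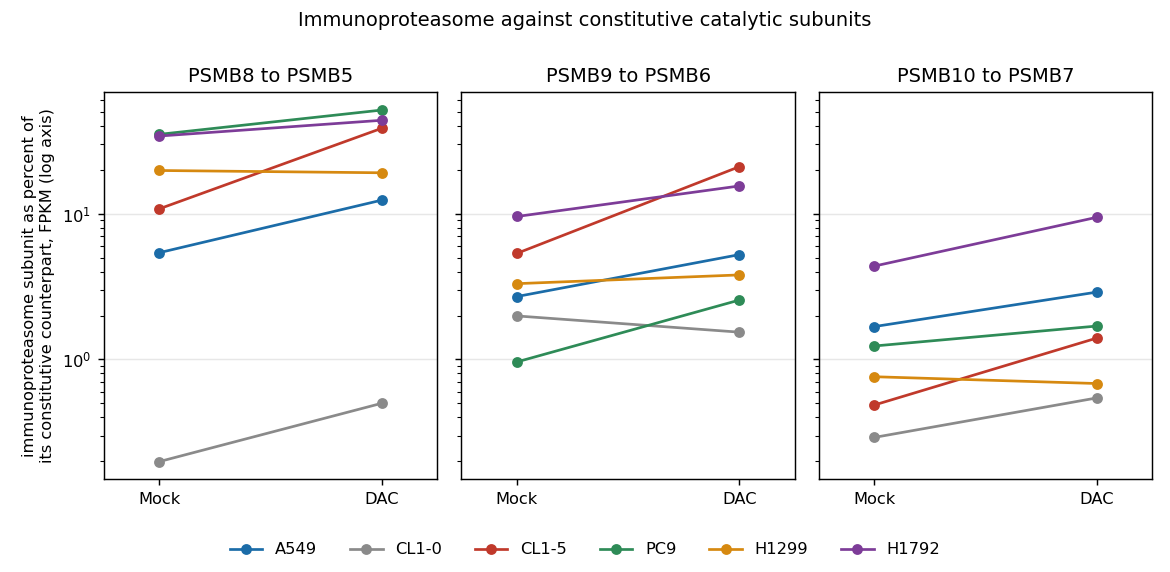
FPKM of PSMB8, PSMB9 and PSMB10 as a percent of PSMB5, PSMB6 and PSMB7 in Mock and DAC libraries, on a log axis, with 1 point per library and 1 line per cell line. In each panel 5 of the 6 lines slope upward, and PSMB8 in CL1-0 stays below 1% of PSMB5.

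NLRC5 (ENSG00000140853; chromosome 16, 57023397 to 57117443) had the lowest median of the 9 genes in Mock, 0.687 FPKM over 6 lines. It had 0.846 FPKM in CL1-5, 0.528 in H1299, 0.339 in A549, 1.37 in PC9, 1.63 in H1792 and 0.198 in CL1-0 in Mock libraries. DAC-treated libraries had 2.50 FPKM in CL1-5, 0.394 in H1299, 1.11 in A549, 2.78 in PC9, 2.45 in H1792 and 0.169 in CL1-0. It was higher in 4 lines, at ratios of 3.28 in A549 (2.59 to 4.18), 2.96 in CL1-5 (2.58 to 3.40), 2.03 in PC9 (1.79 to 2.31) and 1.5 in H1792 (1.34 to 1.69). It was lower in H1299, at 0.747 (0.592 to 0.939), and the interval in CL1-0 spanned 1 (0.586 to 1.2). In limma the log2 fold change over 5 lines was 0.68 with a standard error of 0.33 (adjusted p = 0.438), and 0.94 without H1299. The order of lines for NLRC5 differed from that of TAP1: A549 had the highest NLRC5 ratio, while TAP1 there was 1.46-fold higher, and in H1299 NLRC5 was lower while TAP1 was 2.17-fold higher.

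ERAP1 (ENSG00000164307; chromosome 5, 96096514 to 96143803) had 3.70 FPKM in CL1-5, 13.9 in H1299, 2.43 in A549, 2.96 in PC9, 11.5 in H1792 and 2.06 in CL1-0 in Mock libraries. With DAC the values were 9.17 FPKM in CL1-5, 12.9 in H1299, 6.26 in A549, 5.18 in PC9, 12.8 in H1792 and 2.69 in CL1-0. The ratio was 2.58 in A549 (2.31 to 2.89), 2.48 in CL1-5 (2.28 to 2.7) and 1.75 in PC9 (1.57 to 1.96). CL1-0, with the lowest Mock level, was at 1.31 (1.15 to 1.49), and H1299 and H1792, both above 11 FPKM in Mock, were at 0.928 and 1.11. ERAP1 had the lowest adjusted p of the group, 0.299 from limma, at a log2 fold change over 5 lines of 0.73 with a standard error of 0.23, and it was 0.94 without H1299.

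ERAP2 (ENSG00000164308; chromosome 5, 96211690 to 96255407), which lies beside ERAP1 in the opposite direction, had 0.447 FPKM in CL1-5, 1.29 in H1299, 0.302 in A549, 7.20 in PC9, 1.05 in H1792 and 0.143 in CL1-0 in Mock libraries. The DAC values were 0.749 FPKM in CL1-5, 7.19 in H1299, 0.613 in A549, 8.08 in PC9, 1.11 in H1792 and 0.341 in CL1-0. H1299 stood apart with a ratio of 5.57 (4.89 to 6.36), the highest of any gene and line, and reached the level of PC9, the highest in Mock. The ratio was 2.39 in CL1-0 (1.5 to 3.93), 2.03 in A549 (1.44 to 2.91), 1.67 in CL1-5 (1.27 to 2.2) and 1.12 in PC9 (1.04 to 1.22). ERAP2 had the highest log2 fold change of the group in limma, 0.98 with a standard error of 0.31 (adjusted p = 0.309), and 0.62 without H1299. An antisense RNA gene overlaps ERAP2, and their reads cannot be told apart without the strand setting.

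The neighbours of these genes in the pathway were taken from lists. None of their genes passed the adjusted threshold in limma over 5 lines, and voom called 3, all interferon-stimulated. Beside the counts of positive genes below, 13290 of all 22603 genes tested were positive as deposited. Of the 7 genes of class I heavy chains and B2M, 7 had positive log2 fold changes with a median of 0.40 and 2 were at an unadjusted p under 0.05. They ran from 0.17 for HLA-G to 0.86 for HLA-B (adjusted p = 0.340 from limma), and B2M, the light chain, was at 0.50. HLA genes share reads with near-identical copies, so their values are uncertain. Of 6 peptide loading partners 4 were positive (median 0.17). The range ran from -0.35 for ERP29, a reticulum chaperone, to 0.99 for TAPBPL, which encodes the tapasin-related peptide editor TAPBPR (standard error of 0.20 in limma, adjusted p = 0.181). TAPBPL was higher in 6 of 6 lines, for example 0.336 and 0.891 FPKM in CL1-5 and 0.395 and 1.31 FPKM in H1299.

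Of the 14 constitutive core proteasome genes 2 were positive, with a median of -0.18 as deposited. PSMB4 was lowest at -0.34 and PSMA2 highest at 0.23, and PSMB5, PSMB6 and PSMB7 were at -0.25, -0.28 and -0.27. Of 9 proteasome activator and assembly genes 3 were positive (median -0.09), from -0.26 for PSMG3 to 0.24 for PSME4. Of 7 other peptidases 5 were positive (median 0.09), from -0.18 for NRDC to 0.55 for LNPEP, the endosomal relative of the ERAP enzymes. The split depended on the scaling. With FPKM rescaled to a common sum 6 of the 14 core genes were positive (median -0.05), and with quantile normalization 4 were (-0.06). Of the activator and assembly genes 5 of 9 were positive under both, and their median turned to 0.03 and 0.0033. Of the other peptidases 6 and 5 of 7 were positive (0.22 and 0.10), and of the loading partners 4 and 5 of 6 (0.29 and 0.37).

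Among 21 regulators, of which 20 were tested, 16 were positive with a median of 0.13, 3 were at an unadjusted p under 0.05 in the higher and 1 in the lower direction. IRF1, an interferon-induced activator that binds the core printed above, was highest at 1.05 with a standard error of 0.27 (limma, adjusted p = 0.254), and its level was above Mock in 6 of 6 lines. It had 7.92 and 33.4 FPKM in Mock and DAC H1299, 2.75 and 7.50 in CL1-5, 1.09 and 2.45 in PC9, 5.28 and 9.90 in H1792, 2.27 and 3.36 in A549, and 1.27 and 1.39 in CL1-0. RFX5, a subunit of the factor through which NLRC5 reaches promoters, was at 0.08, and RFXANK of the same factor was lowest at -0.40.

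The 10 interferon-stimulated reference genes are set beside the 9 genes line by line. At least 2-fold higher were 10 of 10 in CL1-5, 7 in A549, 6 in H1299, 2 in PC9, 2 in H1792 and 0 in CL1-0. Their summed level was 242 FPKM in Mock CL1-5 and 2368 after DAC, 22.9 and 201 FPKM in A549, and 97.1 and 78.3 FPKM in CL1-0. The summed level of the 9 genes was 72.1 and 235 FPKM in CL1-5, 46.2 and 61.2 in A549, and 47.9 and 42.3 in CL1-0. On the log2(FPKM + 0.1) scale A549 thus had 7 of 10 interferon-stimulated genes at least 2-fold higher with 2 of the 9 genes, NLRC5 and ERAP1. Over 5 lines the interferon-stimulated genes had a median log2 fold change of 1.67, from 0.74 for GBP1 to 3.51 for IFI27 (adjusted p = 0.175 from limma).

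The genes whose pattern over the 12 libraries was most like that of a member were sought among the 13363 genes that averaged 1 FPKM or more. The measure was Pearson's r of log2(FPKM + 0.1), and libraries of 1 line are not independent. TAP1 was most like IFI6 (0.91), HERC5 (0.90) and SAMHD1 (0.89). PSMB8 was most like SP100 (0.97), TRIM38 (0.96) and SP140L (0.95). PSMB9 was followed by FMNL1 (0.92), PSME2 and UBE2L6 (both 0.90), and NLRC5, among others, by GBP3 (0.93) and DDX60L (0.92). The nearest genes were SNAPC4 (0.94), NSMF and SLC27A4 (both 0.89) for TAP2, and GMPR (0.89), RMC1 and GORASP1 (both 0.87) for TAPBP. They were PDIA3, SYT12 (both 0.94) and ECE1 (0.93) for PSMB10, MT1L, MT1E (both 0.94) and CD164 (0.93) for ERAP1, and DNAJB6, CD163L1 (both 0.93) and TBC1D4 (0.92) for ERAP2.

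Chromatin accessibility could be described for the 4 genes outside chromosome 6. From 3000 bp before TAP2 to 3000 bp past TAPBP the 8 peak lists held 0 to 3 peaks each, against 23 to 45 in the stretch of the same length that follows. No peak of any list was assigned to TAP1, TAP2, TAPBP, PSMB8 or PSMB9. The lists also held 23 to 76 peaks on alternate sequences of chromosome 6, so a lack of peaks at these 5 genes is not a measurement of closed chromatin. Peaks near line-specific genes went against the labels of the ATAC-seq libraries of CL1-5 and PC9. Of 71 genes at 5 FPKM or more in PC9 mRNA and under 0.1 in CL1-5, the Mock list labelled CL1-5 held a promoter peak for 91.5% and the one labelled PC9 for 45.1%. For 28 genes of the reverse pattern the shares were 50% and 96.4%. Accessibility is therefore given by label and not set against the mRNA of these lines.

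At least 1 peak within 3000 bp of a start was listed in 16 of 16 combinations of the 4 genes with a Mock library and in 15 of 16 with a DAC library. Among 15425 ranked genes the share with such a peak in Mock libraries was 79.7% (labelled A549), 82% (CL1-5), 80.4% (PC9) and 76.5% (H1299), and in DAC libraries 82.3%, 83.3%, 82.9% and 79.2%. ERAP2 in the DAC library labelled PC9 was the combination without one. With 4 lines an exact sign-flip test cannot pass 0.05, so these values are descriptions.

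ERAP1 had 1 strong peak over its start in all 8 libraries, with a fold enrichment over the library's own background of 6.82 and 7.01 (Mock and DAC, labelled A549), 7.36 and 6.44 (CL1-5), 6.26 and 6.25 (PC9), and 7.36 and 6.50 (H1299). Ranked by its strongest promoter peak it lay between the 59.5th and 88.5th percentile of genes. The percentile was higher after DAC in 4 of 4 lines, by 5.22 ± 3.95 points (SD, n = 4 lines), but by -2.17 points when genes were ranked by summed peak width. The IRF core of ERAP1 lay under the peak in 8 of 8 libraries.

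ERAP2, whose CpG-poor sequence is printed above, had only weak peaks near its starts. The strongest had a fold enrichment of 2.94 to 3.78 where there was one, with percentiles from 26.9 to 36.4. Its IRF core lay under a peak in 2 of 8 libraries, the Mock libraries labelled A549 and CL1-5. In H1299, where ERAP2 mRNA was 5.57-fold higher, the strongest promoter peak had a fold enrichment of 3.78 in Mock and 2.94 after DAC. PSMB10 had 1 peak in each library, within the gene and past its outermost start in 7 of 8 libraries. Its fold enrichment was 6.60 and 5.53 (labelled A549), 4.39 and 3.86 (CL1-5), 5.56 and 4.56 (PC9), and 4.79 and 4.73 (H1299). The PSMB10 core lay under the peak in the H1299 Mock library alone.

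NLRC5 was the member with the most peaks, spread over its length. Its outermost start was covered in all 8 libraries, with a fold enrichment of 5.28, 4.83, 4.72 and 4.52 in Mock (labelled A549, CL1-5, PC9 and H1299) and of 4.08, 3.32, 3.57 and 4.37 after DAC. The number of peaks assigned to NLRC5 was 4 in Mock and 7 after DAC in the libraries labelled A549, 6 and 11 in CL1-5, 7 and 10 in PC9, and 4 and 10 in H1299. More peaks after DAC in all 4 lines were found for 10.7% of the ranked genes, and for 27.9% of those with at least 4 peaks in every Mock library. The lists as a whole were 1.14 to 1.40 times longer after DAC. When each pair of lists was cut to the same number of peaks, NLRC5 had 4 and 5, 6 and 9, 7 and 5, and 4 and 6 peaks, so the difference did not hold in the libraries labelled PC9. Over the 8 libraries the peaks fell into 21 sites, of which 7 had peaks under both treatments, 11 after DAC alone and 3 in Mock alone. Of the 11, 4 recurred in 2 or more DAC libraries. They began 14.7, 25.2, 45.1 and 65.5 kb from the start.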

How the data were processed

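The genes and lists were chosen with earlier results of these data known. Per the paper's methods, the authors aligned mRNA-seq reads to hg19 with RSEM and bowtie2 (the submitters' processing notes also name TopHat2 2.1.1), counted them per GENCODE gene and used DESeq2 1.24.0 to make the deposited FPKM and a mean normalized signal for each gene. Columns with the authors' own fold changes and p-values were not used, and 0 columns of values lacked a sample. For ATAC-seq the authors aligned reads with BWA 0.7.17-r1188, called broad peaks per library with MACS2 2.2.5 and annotated them with ChIPseeker 1.20.0. The deposited lists give a fold enrichment (a ratio to local background) and −log10 p- and q-values.

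Reads behind each FPKM were recovered from the mean signal as whole multiples of 1 read (100% of values, within 0.001), with depths given above. Ratios of 2 libraries carry exact 95% binomial intervals, for counting error only. Genes that averaged 0.1 FPKM or more were fitted as log2(FPKM + 0.1) with limma 3.58.1 in R 4.3.3, with an intensity trend and the cell line as a block, with Benjamini-Hochberg adjustment over all genes tested. This scale understates the change of low genes. Mock and DAC libraries share a line, and their deviations correlated at 0.731 to 0.900 within a line and at most 0.115 between lines. Ratios of subunits were tested with exact sign-flip permutations in Python 3.11.15. Named genes are the 9 members, the genes of each list with the largest and smallest log2 fold change, IRF1, RFX5, B2M, PSMB5, PSMB6 and PSMB7, and the 3 genes most like each member. Some genes under this rule are not reported here. Other genes named were chosen after their values were seen. Genes were ranked by the fold enrichment of the strongest peak within 3000 bp of a start. Alternatives were other pseudocounts, filters, scalings, peak settings and each line left out, and the per-line scalings and the equal peak numbers for NLRC5 were chosen after seeing the data. Promoters came from RefSeq and positions from a GENCODE annotation of GRCh37.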

Additional observations from a re-analysis of the deposited data

Results flagged for a closer look

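In 27 groups of 6 lines (levels in Mock, levels after DAC and log2 differences of the 9 genes), 3 values lay far from the other lines by Dixon's test, and chance alone gives about 1 in 20. The log2 difference of PSMB8 in CL1-5 was 2.13, apart from the other 5 lines, whose highest was 0.69. The Mock level of PSMB8 in CL1-0 was -1.19 on the log2(FPKM + 0.1) scale, or 0.338 FPKM from 16 reads, while the other 5 lines had 7.12 FPKM or more. The log2 difference of ERAP2 in H1299 was 2.39, and the next line was CL1-0 at 0.86.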

How the results depend on the processing

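Under 15 alternative settings the log2 fold changes of the 9 genes were positive in 135 of 135 combinations of gene and setting, and none was called in any. Settings that changed only the block, the filter or the trend leave a log2 fold change as it is, so they bear on the calls alone. With single lines left out, the log2 fold change ran from 0.55 to 1.18 for TAP1, 0.22 to 0.52 for TAP2, 0.16 to 0.51 for TAPBP, 0.34 to 0.87 for PSMB8, 0.20 to 0.92 for PSMB9, 0.08 to 0.54 for PSMB10, 0.48 to 0.94 for NLRC5, 0.58 to 0.94 for ERAP1 and 0.62 to 1.18 for ERAP2. The 3 subunit ratios stayed positive in 30 of 30 combinations of ratio and setting, in which leaving out H1792 is counted more than once. The number of all genes called (27) became 53 with H1792 added, 10 without the replicate block, 0 with a pseudocount of 1, 2 without a filter, 17 with quantile normalization, 6 without a trend and 199 with voom on recovered reads, which also called 3 pathway genes. It was 0 to 23 with single lines left out, and 0 without A549 or without CL1-5. Without the block 0 members were at an unadjusted p under 0.05, a level at which the share of all genes was not computed for this setting. Members at least 2-fold higher became 1 in PC9 after rescaling to a common sum and 1 in H1299 with quantile normalization. With equal numbers of peaks NLRC5 had 25 peaks in the 4 DAC libraries in place of 38. Ranking by summed peak width gave percentile changes of -12.2 for PSMB10, 32.2 for NLRC5, -2.17 for ERAP1 and -27.5 for ERAP2. The cause of these differences was not tested. Depth limited PSMB8 and PSMB10 in CL1-0, at 16 to 36 reads, and the depth of the ATAC-seq libraries is unknown.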
